A study of Arabidopsis thaliana with 4 samples.

Results

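WRKY proteins are plant transcription factors named after the first residues of a conserved stretch in their DNA-binding domain, which also holds a zinc finger. They bind the W-box, a short DNA element with the core TTGAC, and many of their own genes carry W-boxes, so that members activate or repress each other. In leaves and roots they are known for responses to microbes, wounding, salicylic and jasmonic acid, phosphate supply and senescence. The family is divided into group I, with a pair of WRKY domains, group II, with a single domain and subgroups IIa to IIe, and group III, with a single domain and another form of zinc finger. The 47 WRKY genes described here were chosen as a list of gene identifiers of the family, with earlier results of these data known, and each was read from the gene model that holds its own annotated transcript, out of 36251 gene models in the table. The list leaves out 25 other WRKY genes, which are given further on as a list of their own. Choosing every annotated model that names a listed identifier gave 48 models, because 1 model of the neighbouring gene AT5G26160 also names WRKY50, and that model was not counted as WRKY50.

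The values are FPKM (fragments per kilobase of transcript, scaled to the mapped fragments of a library) from RNA of wild-type Arabidopsis thaliana seedlings, 2 weeks old, raised in soil under long days at 22 °C. The plants were of the Columbia accession, reproduced separately as 2 lines, named SALK Col-0 in one case and Another Col-0 in the other, and each gave 2 biological replicates without treatment. Single reads of 101 nt came from 4 libraries. Whether replicates had trays or days of their own is not in the labels, and the p-values therefore measure only how far these libraries spread.

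Read totals are not in the table, so the depth is unknown and no counting interval is given. The libraries had 22495 to 22822 annotated models above 0. Of the leaf markers, the Rubisco activase gene RCA overlapped between the lines (1339 to 1479 FPKM). The chlorophyll-binding protein gene CAB1 was marked by the authors' program as too deep to estimate. The model of the Rubisco gene RBCS1A had 6626 and 6665 against 8586 and 7825 FPKM. It spans chromosome 1 from 24757856 to 25049511, a place shared by 96 models (a bundle). Its deposited limits ran from 21.6 to 16027 FPKM in SALK Col-0 replicate 1, so its values may not be those of RBCS1A alone. Of the root markers, CASP1 (19.0 to 22.4 FPKM) and PRP3 (7.67 to 15.7 FPKM) overlapped. The root genes SCR (16.5 and 17.9 against 20.5 and 20.5 FPKM) and TIP2;3 (6.27 and 7.14 against 10.7 and 11.3 FPKM) were higher in both Another Col-0 libraries. The floral genes PI and SEP3 had 2.86 to 3.21 and 12.2 to 17.2 FPKM in SALK Col-0, and 8.42 to 9.62 and 30.1 to 35.7 FPKM in Another Col-0. The seed storage gene CRA1 had 6.86 to 7.29 FPKM in the SALK Col-0 libraries, against 2.04 to 2.28 FPKM in the others. Of the other markers in these lists, AP3, AG and OLEO1 were low and SESA3 was listed at 0. AP3 (0.141 and 0.119 against 0.346 and 0.281 FPKM) and AG (0.149 and 0.109 against 0.204 and 0.152 FPKM) were higher in both Another Col-0 libraries. OLEO1 was lower in both (0.187 and 0.239 against 0.0940 and 0.0964 FPKM). The part of these leaf, root, floral and seed transcripts in the WRKY values was not tested. In such bulk samples, fewer cells of a type and less RNA per cell cannot be told apart.

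Sequences upstream of the gene start are shown for the 3 genes of subgroup IIa, whose values were higher in Another Col-0, and for WRKY33 and WRKY70, whose values were lower. Each is the stretch of 300 bases that ends just before the RefSeq gene start, read 5′ to 3′ on the strand of the gene, from the TAIR10.1 assembly. The RefSeq start of each of these 5 genes lies upstream of the start of the authors' model. Capitals mark the core TTGAC or its reverse complement GTCAA. The stretches lie at chr4:15382477-15382776 (plus strand) for WRKY18, chr1:30383261-30383560 (plus) for WRKY40, chr2:10629362-10629661 (plus) for WRKY60, chr2:16107935-16108234 (plus) for WRKY33 and chr3:20910624-20910923 (minus) for WRKY70.
WRKY18: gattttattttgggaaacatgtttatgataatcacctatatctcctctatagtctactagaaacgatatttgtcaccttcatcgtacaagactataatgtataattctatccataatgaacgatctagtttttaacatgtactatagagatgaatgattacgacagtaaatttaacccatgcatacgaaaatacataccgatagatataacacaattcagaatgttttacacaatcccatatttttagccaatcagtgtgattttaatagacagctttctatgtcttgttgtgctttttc
WRKY40: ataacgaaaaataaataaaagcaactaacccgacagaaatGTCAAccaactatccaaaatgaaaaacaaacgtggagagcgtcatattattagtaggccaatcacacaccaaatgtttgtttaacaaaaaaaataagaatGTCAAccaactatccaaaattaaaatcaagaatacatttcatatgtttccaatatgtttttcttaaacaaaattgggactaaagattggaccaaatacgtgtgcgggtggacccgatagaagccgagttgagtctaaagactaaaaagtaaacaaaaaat
WRKY60: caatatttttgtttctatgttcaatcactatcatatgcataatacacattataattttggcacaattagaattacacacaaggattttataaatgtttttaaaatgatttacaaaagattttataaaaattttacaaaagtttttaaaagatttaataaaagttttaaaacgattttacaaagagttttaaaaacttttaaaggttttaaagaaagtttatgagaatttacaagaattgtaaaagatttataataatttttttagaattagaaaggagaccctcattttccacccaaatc
WRKY33: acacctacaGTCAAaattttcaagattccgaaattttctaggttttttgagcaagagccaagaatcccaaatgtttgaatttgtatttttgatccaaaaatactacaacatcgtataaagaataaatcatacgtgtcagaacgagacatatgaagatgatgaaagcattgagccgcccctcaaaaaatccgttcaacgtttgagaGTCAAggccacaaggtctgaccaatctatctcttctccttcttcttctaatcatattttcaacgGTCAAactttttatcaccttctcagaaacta
WRKY70: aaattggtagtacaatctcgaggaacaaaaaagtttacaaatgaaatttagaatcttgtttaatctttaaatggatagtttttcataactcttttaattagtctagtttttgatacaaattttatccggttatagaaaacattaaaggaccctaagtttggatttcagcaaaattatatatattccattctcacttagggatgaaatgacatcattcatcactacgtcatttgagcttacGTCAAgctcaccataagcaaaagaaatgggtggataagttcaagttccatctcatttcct

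A full W-box was searched as TTGACC or TTGACT on both strands. The WRKY33 stretch held 3 full W-boxes, and the stretches of WRKY18, WRKY40, WRKY60 and WRKY70 held 0. The core alone, which every full W-box contains, occurred 3 times upstream of WRKY33, 2 times upstream of WRKY40, 1 time upstream of WRKY70 and 0 times upstream of WRKY18 and WRKY60. Over all 47 members, 20 stretches (42.6%) held at least 1 full W-box and 9 (19.1%) at least 2. Among the same stretches of 27437 protein-coding genes, 32.3% held at least 1 and 7.91% at least 2. At least 1 full W-box was in 50% of the 14 members that were apart and higher, in 53.3% of the 15 apart and lower and in 27.3% of the 11 that overlapped. The 5 stretches printed are therefore not typical of a side. A motif outside the stretch was not searched.

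The mean levels of the 47 genes ran from 92.6 FPKM to 0.0484 FPKM. WRKY15, whose product acts in osmotic and oxidative stress responses, had the highest mean, followed by WRKY33, WRKY11 and WRKY22, and these 4 genes held 38.3% of the summed mean FPKM of the family list. A mean of at least 20 FPKM was reached by 13 genes. The order of WRKY15 and WRKY33 depended on the line, since WRKY33 was the highest in both SALK Col-0 libraries and WRKY15 in Another Col-0. The neighbours WRKY21 and WRKY7 (29.3 to 39.2 and 29.8 to 37.6 FPKM) and WRKY29, WRKY50 and WRKY2 (5.13 to 5.96, 4.81 to 5.94 and 4.93 to 5.46 FPKM) overlapped across libraries and their order is not fixed. At the low end, 7 genes had a mean under 1 FPKM and were not tested. They are WRKY31, WRKY8, WRKY54, WRKY30, WRKY51, WRKY38 and WRKY55. The last 4 of them stayed at or under 0.308 FPKM in every library.

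**Figure D1:**
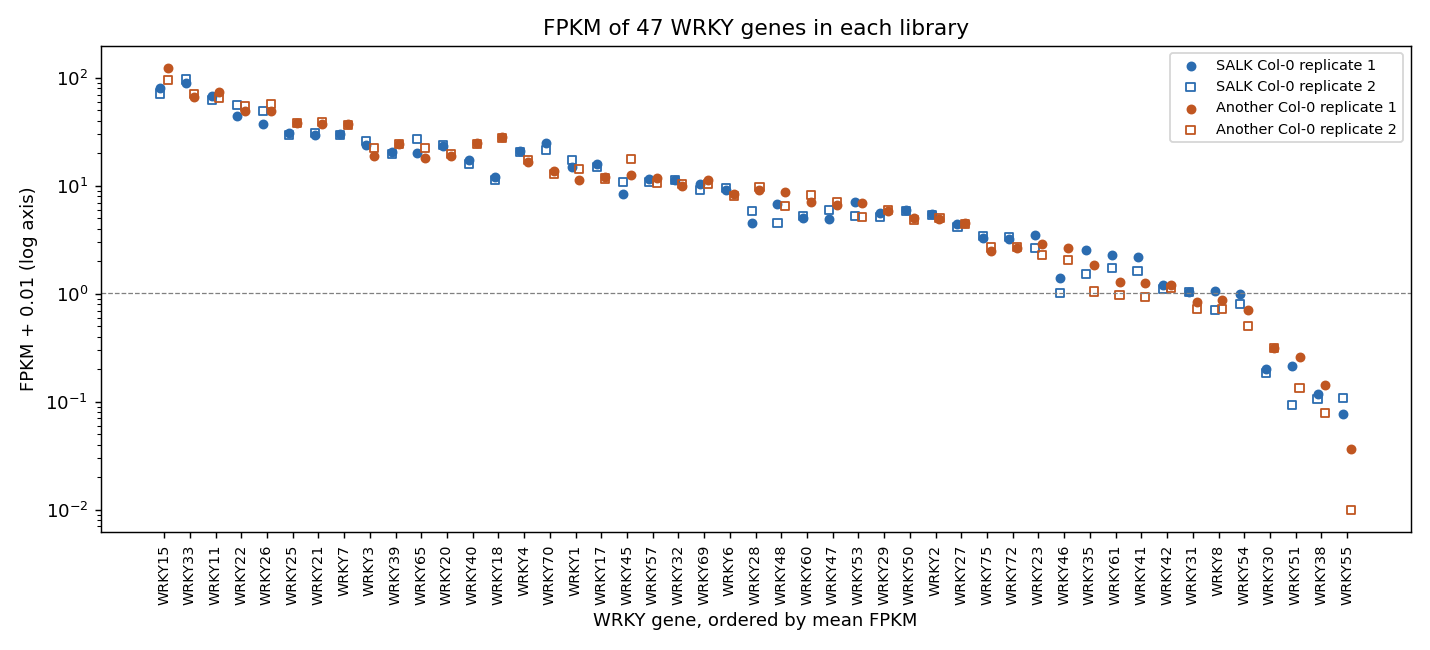
FPKM of each of the 47 WRKY genes (x axis, ordered by mean) in the 4 libraries, on a log axis after adding 0.01, with the dashed line at 1 FPKM. Most genes have their 4 points close together, WRKY18 shows both Another Col-0 points above both SALK Col-0 points, and 7 genes lie below the line on average.

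No WRKY gene passed the test, which took in the 20634 models whose mean reached 1 FPKM. A difference is the mean of Another Col-0 less that of SALK Col-0 on the log2(FPKM + 1) scale, which understates changes of low genes, with the standard error and the Benjamini-Hochberg adjusted p of limma. At an adjusted p under 0.05, 0 of 40 tested members were higher (0% of all models tested) and 0 were lower (0%), and the smallest adjusted p of any member was 0.199 (limma, WRKY18). At an unadjusted p under 0.05 limma had 9 members higher (22.5%, where 10.2% of all models were) and 6 lower (15%, where 6.45% were). With 2 libraries a line the smallest two-sided p of an exact permutation test is 0.33, which is why each library's value is shown. A missed threshold at this spread does not show that levels were alike. Among annotated models fitted alone, limma called 0 members on either side, where 0.0543% of models were called higher and 0.00543% lower. The smallest adjusted p of a member in that fit was 0.0629 (limma, WRKY18), so it depended on which models were tested. With the replicate number as a term, 12 of 40 members were called higher, where 14.3% of all models were, and 6 lower, where 8.11% were. With annotated models alone and that term, 14 members were called higher, where 26.6% of models were, and 14 lower, where 18.1% were. However, the labels do not say what a number stands for.

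Both Another Col-0 libraries lay above both SALK Col-0 libraries in 14 of 40 members (35%), where 26.2% of all tested models and 29.3% of annotated ones did so. In 15 members (37.5%) both lay below, where 20.8% of all tested models and 23.2% of annotated ones did. The remaining 11 members overlapped. The median difference of the members was 0.00 (0.01 between the replicates 1 and -0.01 between the replicates 2), beside 0.02 over all tested models. Differences of at least 0.5 without overlap were seen in 6 members on the higher side (15%, where 4.22% of annotated models had one) and in 1 on the lower side (2.5%, where 2.62% had one). The members were chosen with earlier results of these data known. These shares, those at an unadjusted p and those by group below therefore support nothing about the family. Of the WRKY genes left off the list, 10 were tested, with 0 apart and higher and 6 apart and lower. The ranges that the authors' program gives around each FPKM value were wide. These deposited limits of the lines were apart for 0 of 40 tested members, and for 0.103% of annotated models.

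**Figure D2:**
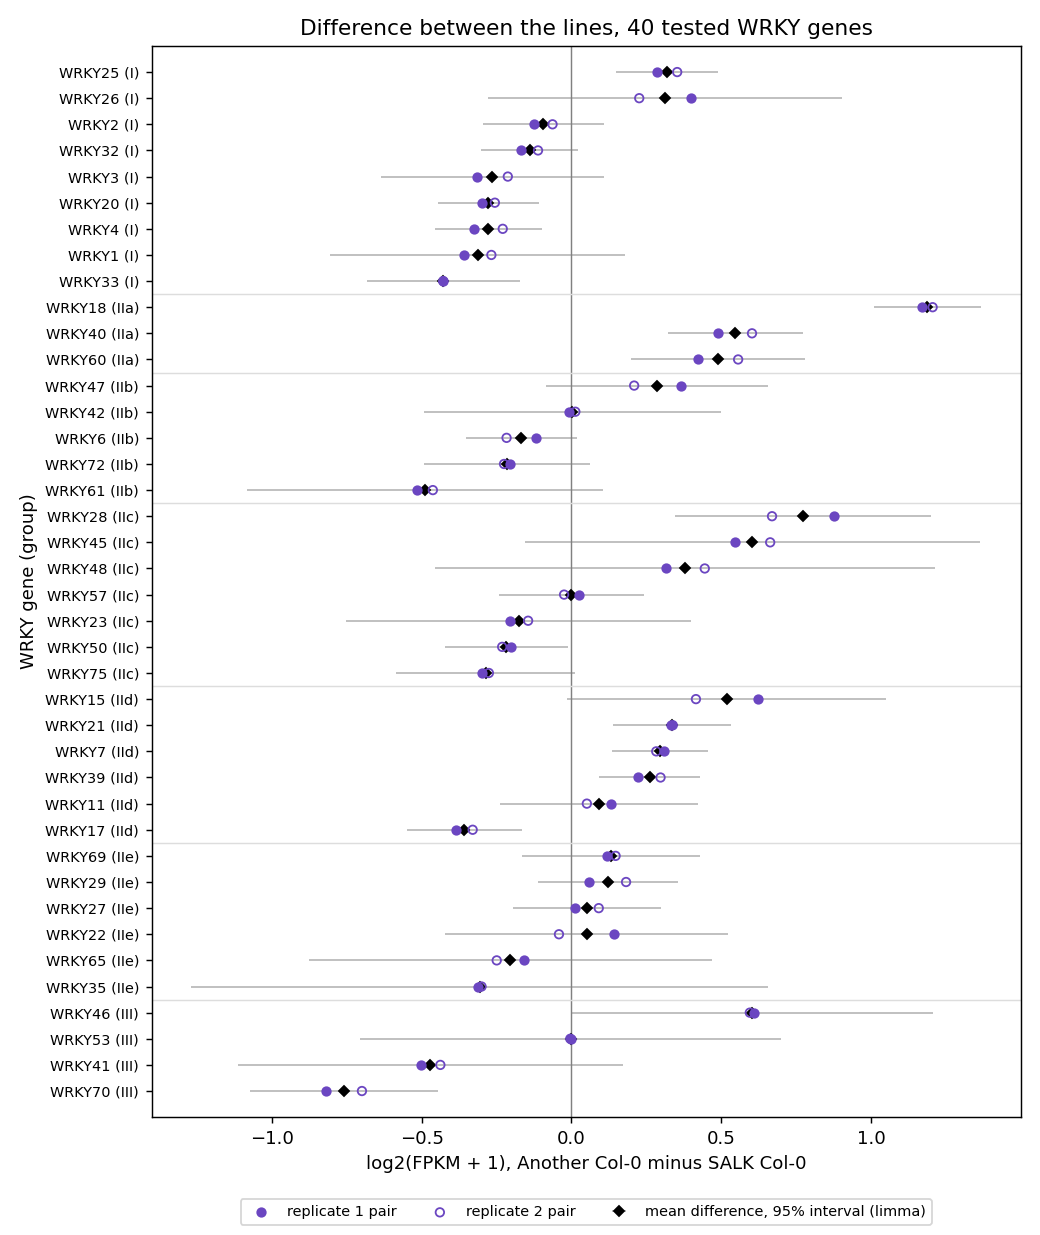
Difference between the lines on the log2(FPKM + 1) scale for the 40 tested WRKY genes, sorted within family groups, as the mean with limma's 95% interval (diamond and bar) and within each replicate number (filled and open circles). All 3 genes of subgroup IIa lie on the higher side and 7 of 9 genes of group I on the lower side, with no gene past the test over all models.

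Subgroup IIa holds 3 genes whose proteins bind each other and act in a partly redundant way in defence. The model of WRKY18 (AT4G31800) lies on chromosome 4 at 15383201 to 15385029 (TAIR10, plus strand), WRKY40 on chromosome 1 at 30383691 to 30385499 and WRKY60 (AT2G25000) on chromosome 2 at 10629729 to 10631413. Replicates 1 and 2, always given in this order, had 12.0 and 11.4 FPKM of WRKY18 in the SALK Col-0 line, against 28.3 and 27.5 FPKM in Another Col-0. The lines were far apart beside the spread between replicates, a 2.39-fold ratio of means. Its difference was 1.19 ± 0.056 (1.17 and 1.21 in the replicate 1 and 2 pairs; limma, adjusted p = 0.199). The deposited limits of WRKY18 reached up to 18.8 FPKM in SALK Col-0 and down to 16.4 FPKM in Another Col-0, so they met.

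WRKY40 (AT1G80840), the closest partner of WRKY18 and a repressor of defence and abscisic acid response genes, had 17.3 and 15.8 FPKM in the SALK Col-0 pair of libraries, against 24.8 and 24.5 FPKM in the Another Col-0 pair. All its Another Col-0 values were higher, with a ratio of 1.49 and a difference of 0.55 ± 0.071 (limma, adjusted p = 0.202). WRKY60, which WRKY18 and WRKY40 are known to induce in abscisic acid responses, had 5.07 and 5.24 against 7.14 and 8.17 FPKM, again without overlap. Its difference was 0.49 ± 0.091 (limma, adjusted p = 0.219). Of the WRKY groups this is the one where every tested gene (3 of 3) had non-overlapping lines on the higher side. Among annotated models 29.3% were apart and higher.

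In group I, 7 of 9 genes were lower in both Another Col-0 libraries and 2 higher, beside 23.2% and 29.3% of annotated models. WRKY33 (AT2G38470, chromosome 2, 16108361 to 16110766), which activates camalexin synthesis against necrotrophic fungi, had 89.2 and 96.4 FPKM in the SALK Col-0 pair of libraries, against 66.1 and 71.4 FPKM in the Another Col-0 pair. The lines did not overlap, and the difference was -0.43 ± 0.080, the same in both replicate pairs (limma, adjusted p = 0.219). WRKY3 and WRKY4, both known to act against necrotrophs, had differences of -0.26 and -0.28, the first -0.15 without Another Col-0 replicate 1. WRKY4 lay in a bundle of 36 models. Its deposited limits ran from 0 to 86.8 FPKM around a value of 20.9 FPKM in SALK Col-0 replicate 1. WRKY1, WRKY20, WRKY32 and WRKY2, which sets the polarity of the zygote, had differences between -0.31 and -0.09, that of WRKY1 being -0.16 without Another Col-0 replicate 1. The group's median was -0.26.

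The 2 group I genes on the higher side are WRKY25 and WRKY26, which act with WRKY33 in heat tolerance. WRKY25 had 31.1 and 29.7 FPKM in the SALK Col-0 pair of libraries, against 38.1 and 38.2 FPKM in the Another Col-0 pair, a difference of 0.32 ± 0.054 (limma, adjusted p = 0.210). WRKY26 had 37.2 and 48.9 against 49.4 and 57.4 FPKM. Its lines did not overlap but differed by less than the SALK Col-0 replicates did (0.39), and the difference of 0.31 ± 0.186 had a 95% interval from -0.28 to 0.90. Leaving out a SALK Col-0 library gave 0.12 (replicate 1 out) or 0.51 (replicate 2 out), and leaving out replicate 2 of Another Col-0 gave 0.21.

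Subgroup IId, whose proteins bind calmodulin, had 4 genes higher, 1 lower and 1 overlapping, with a median of 0.28, beside 29.3% of annotated models apart and higher. WRKY15 (AT2G23320) had 79.8 and 71.5 FPKM in the SALK Col-0 pair of libraries, against 123 and 95.7 FPKM in the Another Col-0 pair. The groups did not overlap, but the Another Col-0 replicates were themselves far apart. The difference of 0.52 ± 0.167 did not pass (limma, adjusted p = 0.307) and was 0.34 without Another Col-0 replicate 1. With the replicate number as a term, WRKY15 was called higher (limma, adjusted p = 0.0394), as were 14.3% of all models. What that number stands for is not in the labels. WRKY21, WRKY7 and WRKY39 had smaller differences with tight replicates, 0.34 ± 0.062, 0.30 ± 0.051 and 0.26 ± 0.053.

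The pair WRKY11 and WRKY17, close relatives that both hold back resistance to bacteria, are given side by side. WRKY17 had 15.9 and 14.9 FPKM in the SALK Col-0 pair of libraries, against 12.0 and 11.7 FPKM in the Another Col-0 pair, a difference of -0.36 ± 0.060 (limma, adjusted p = 0.210). WRKY11 had 67.6 and 62.4 against 74.2 and 64.7 FPKM and overlapped, with a difference of 0.09 whose 95% interval ran from -0.24 to 0.42. Whether the pair differ in their response to the line was not tested.

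Group III holds regulators of salicylic acid responses and leaf senescence, and its 4 tested genes were split. WRKY70 (AT3G56400, chromosome 3, 20908928 to 20910481, minus strand), which promotes salicylic acid responses and delays senescence, had 24.8 and 21.5 FPKM in the SALK Col-0 pair of libraries, against 13.6 and 12.9 FPKM in the Another Col-0 pair. It was the tested member with the most negative difference, 1.75-fold lower in the means, with a difference of -0.76 ± 0.099 (limma, adjusted p = 0.202). Its relative WRKY54, which acts with it in senescence, had 0.982 and 0.787 against 0.692 and 0.494 FPKM, also apart and lower, below the level that was tested.

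WRKY46 (AT2G46400), which acts with WRKY70 and WRKY53 in basal defence, had 1.38 and 1.00 FPKM in the SALK Col-0 pair of libraries, against 2.63 and 2.03 FPKM in the Another Col-0 pair. The lines did not overlap and the ratio was 1.96, at a level near the filter, with a difference of 0.60 ± 0.190 (limma, adjusted p = 0.300), or 0.92 with a pseudocount of 0.1. WRKY41, known for control of seed dormancy, had 2.20 and 1.61 against 1.26 and 0.924 FPKM, a difference of -0.47 ± 0.202, or -0.75 with a pseudocount of 0.1. WRKY53 (AT4G23810), an activator of leaf senescence, had 7.0 and 5.19 FPKM in the SALK Col-0 pair of libraries, against 6.99 and 5.18 FPKM in the Another Col-0 pair. Its replicates of the same number differed by under 0.01 between the lines, while replicates 1 and 2 differed by -0.37 (replicate 2 minus 1) within each line. The 95% interval of its line difference ran from -0.70 to 0.70.

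WRKY55 lies beside WRKY54 on chromosome 2, with 944 bases between the 2 models, which are transcribed toward each other. WRKY55 had 0.0678 and 0.0990 FPKM in the SALK Col-0 libraries, against 0.0267 FPKM in replicate 1 of Another Col-0 and a listed 0 in replicate 2. Both neighbours had their lower values in Another Col-0, at levels too low for the test. The group III genes WRKY30, a gene induced by reactive oxygen, and WRKY38, a repressor of basal defence, stayed at 0.175 to 0.308 and at 0.0684 to 0.133 FPKM.

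Subgroup IIc had 2 genes apart and higher, 2 apart and lower and 3 overlapping, with a median of 0.00. Beside these counts, 29.3% and 23.2% of annotated models were apart on the higher and lower side. The 2 genes on the higher side are WRKY28 and WRKY45. WRKY28 (AT4G18170), which activates the salicylic acid synthesis gene ICS1, had 4.56 and 5.797 FPKM in the SALK Col-0 pair of libraries, against 9.21 and 9.81 FPKM in the Another Col-0 pair. The groups were well apart, a ratio of 1.84 and a difference of 0.77 ± 0.134 (limma, adjusted p = 0.212). WRKY45 (AT3G01970), an activator of the phosphate transporter gene PHT1;1, had 8.35 and 10.9 against 12.6 and 17.8 FPKM. In WRKY45 both lines had more in replicate 2, and its difference of 0.60 ± 0.239 had a 95% interval from -0.15 to 1.36 (limma, adjusted p = 0.359). Without Another Col-0 replicate 2 it was 0.37. The replicate 1 and 2 pairs gave 0.55 and 0.66. With the replicate number as a term, WRKY45 was called higher (limma, adjusted p = 0.0337), as were 14.3% of all models. What that number stands for is not in the labels.

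Their reported targets were measured too. ICS1 had 6.08 and 5.78 FPKM in the SALK Col-0 pair of libraries, against 6.52 and 6.46 FPKM in the Another Col-0 pair, a difference of 0.11 ± 0.062, and PHT1;1 had 13.6 and 20.4 against 13.4 and 17.8 FPKM and overlapped. WRKY75, which acts in phosphate starvation and root hairs, had a difference of -0.29 ± 0.094 with values between 2.47 and 3.45 FPKM. WRKY50, which acts in the repression of jasmonate responses, had one of -0.22 ± 0.065. WRKY48, a repressor of basal defence, WRKY57 and WRKY23, an auxin-responsive gene, overlapped between the lines.

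Subgroup IIb had 1 gene apart and higher, 3 apart and lower and 1 overlapping, with a median of -0.17. Beside these counts, 29.3% and 23.2% of annotated models were apart on the higher and lower side. WRKY61 had 2.25 and 1.72 against 1.28 and 0.972 FPKM, a difference of -0.49 ± 0.187, or -0.77 with a pseudocount of 0.1. WRKY6 and WRKY42 both repress the phosphate export gene PHO1, and WRKY6 also acts in senescence. WRKY6 had 9.19 and 9.46 against 8.39 and 8.003 FPKM, a difference of -0.17 ± 0.058, and WRKY42 had values between 1.09 and 1.21 FPKM in all libraries. PHO1 had 46.7 and 39.9 FPKM in the SALK Col-0 pair of libraries, against 36.0 and 30.8 FPKM in the Another Col-0 pair. WRKY72, which acts in basal defence, had a difference of -0.22, and WRKY47 one of 0.29.

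In subgroup IIe, 5 of 6 genes overlapped between the lines, beside 29.3% and 23.2% of annotated models apart on the higher and lower side. WRKY22 and WRKY29, targets of the kinase cascade downstream of flagellin, had 44.6 and 55.8 against 49.3 and 54.2 FPKM, and 5.61 and 5.13 against 5.89 and 5.96 FPKM. WRKY29 was apart, but by a difference of 0.12 ± 0.073 only. WRKY27, WRKY65, WRKY69 and WRKY35 had differences between -0.31 and 0.13. The 95% interval of WRKY35 spanned -1.27 to 0.66, and its difference of -0.31 was -0.47 with a pseudocount of 0.1.

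Replicates of the same number shared part of their spread. Over the 40 tested members, replicate 2 minus replicate 1 on the log2(FPKM + 1) scale in SALK Col-0 and the same in Another Col-0 had Pearson r = 0.90, a description across genes that share libraries. WRKY35 and WRKY48 had values between -0.51 and -0.37 for this difference in both lines, and WRKY45 and WRKY65 had values between 0.31 and 0.46. In 28 of the 40 members the difference between lines was larger than both replicate differences. Within each replicate number, 18 members were higher and 19 lower in both pairs, and 3 (WRKY22, WRKY57 and WRKY42) turned sign between pairs. The shares of all models with these patterns were not counted, so these counts are not a result about the WRKY list.

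**Figure D3:**
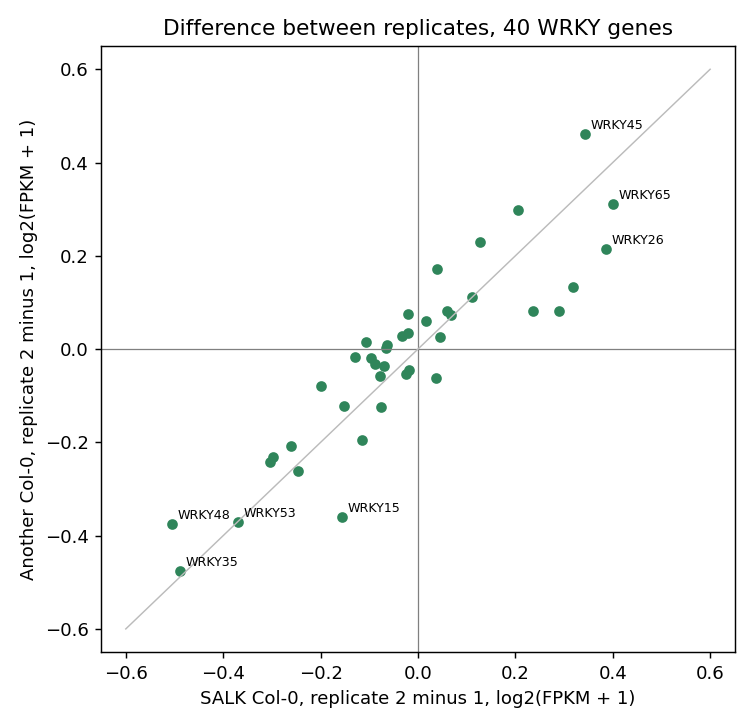
Replicate 2 minus replicate 1 on the log2(FPKM + 1) scale in SALK Col-0 (x axis) and Another Col-0 (y axis) for the 40 tested WRKY genes, each point a gene and the grey line equality. The points follow the line (r = 0.90), from WRKY35 and WRKY48 at the low end to WRKY45 and WRKY65 at the high end.

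Some WRKY genes share their place with other models. Of the 47, 10 lay in a bundle with other models, among them WRKY33 and WRKY40, and WRKY4 lay in a bundle of 36 models. The library kit named in the labels does not mark strand, so reads from both strands of such a place cannot be told apart. A model of 121 bases on the strand opposite WRKY41 was listed at 77.0 and 143 FPKM in the replicates 1 of SALK Col-0 and Another Col-0, and at 0 in both replicates 2. That model is little longer than the 101 nt reads, and how many reads its values rest on is not known. A model of 434 bases opposite WRKY35 had the reverse pattern, listed at 0 in both replicates 1 and at 2.28 and 1.29 FPKM in replicates 2 of SALK Col-0 and Another Col-0. These unannotated models moved with the replicate number in both lines.

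The other WRKY genes were mostly low or listed at 0. Of these 25 genes, 10 had a mean of at least 1 FPKM, with 0 apart on the higher side, 6 apart on the lower side and a median of -0.21, and 0 passed limma (0 higher and 2 lower at an unadjusted p under 0.05). Of annotated models 29.3% were apart and higher and 23.2% apart and lower. WRKY13, which acts in stem fibre walls, had 1.76 and 1.69 against 0.961 and 0.974 FPKM. WRKY13 is in both counts on the lower side, but passed the filter on low values only through SALK Col-0, so it had to differ to be tested. WRKY36 had 7.16 and 6.05 against 5.06 and 3.96 FPKM, and WRKY14 had 5.33 and 5.35 against 3.80 and 3.53 FPKM. WRKY71, known for shoot branching and flowering, had 0.0953 and 0.0963 FPKM in the SALK Col-0 pair of libraries, against 0.544 and 0.495 FPKM in the Another Col-0 pair, under the level that was tested. The WRKY genes listed at 0 in all 4 libraries were WRKY64, WRKY66, WRKY67 and WRKY68. WRKY64 and WRKY67 lay in a bundle of 96 models, within the span of the RBCS1A model. Whether this affected their values was not tested.

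VQ proteins, small partners that bind WRKY domains, lay on both sides. Of 20 tested models out of 26 genes, 6 were apart and higher, 5 apart and lower, and the median was 0.01, with 0 past limma (2 higher and 1 lower at an unadjusted p under 0.05). These counts are near the shares of annotated models apart on those sides, 29.3% and 23.2%. VQ10, a partner of WRKY8, had 0.981 and 0.990 FPKM in the SALK Col-0 pair of libraries, against 2.64 and 2.38 FPKM in the Another Col-0 pair, a difference of 0.82 ± 0.130. VQ10 passed the filter on low values only through Another Col-0, so it had to differ to be tested. VQ31, among the 5 apart and lower, passed it only through SALK Col-0 (means of 1.36 against 0.839 FPKM). CAMBP25, which binds calmodulin, had 14.1 and 15.1 against 24.6 and 22.4 FPKM, and VQ12 had 13.1 and 8.12 against 23.1 and 14.3 FPKM. On the lower side VQ33 had 38.0 and 26.6 against 24.5 and 18.4 FPKM. MKS1, which links WRKY25 and WRKY33 to the kinase MPK4, had 8.34 and 10.03 against 11.02 and 12.3 FPKM.

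The listed kinases that phosphorylate WRKY proteins or act above them were more often higher than lower. They were chosen with earlier results of these data known, so this direction supports nothing. Of 12 tested models, 7 were apart on the higher side and 0 on the lower side, with a median of 0.18 and 0 past limma (6 higher at an unadjusted p under 0.05), beside 29.3% and 23.2% of annotated models apart on those sides. The calcium-dependent kinase gene CPK11 had 18.9 and 17.4 FPKM in the SALK Col-0 pair of libraries, against 25.5 and 26.4 FPKM in the Another Col-0 pair, a difference of 0.49 ± 0.069. MKK4, CPK5 and CPK4 had differences of 0.39, 0.30 and 0.23. MPK3, which phosphorylates WRKY33, had 213 and 181 against 184 and 162 FPKM and overlapped.

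Genes reported as targets of WRKY proteins gave 14 tested models from 26 genes, of which 5 were apart and higher and 6 apart and lower, with a median of -0.10 and 0 past limma (2 higher and 2 lower at an unadjusted p under 0.05), beside 29.3% and 23.2% of annotated models apart on those sides. CYP81F2, an indole glucosinolate enzyme, had 10.99 and 10.3 FPKM in the SALK Col-0 pair of libraries, against 25.4 and 23.8 FPKM in the Another Col-0 pair, a difference of 1.14 ± 0.069. NCED3, an abscisic acid synthesis gene that WRKY33 represses, had 6.66 and 7.15 against 3.70 and 3.52 FPKM. The camalexin genes downstream of WRKY33 were low. PAD3 had 0.745 to 0.937 FPKM over the libraries, and the model that pools CYP71A12 and CYP71A13 had 1.27 to 2.40 FPKM and overlapped. The epithiospecifier gene ESP, whose product interacts with WRKY53, had 11.6 and 16.2 against 7.73 and 10.7 FPKM, and GL2, a trichome regulator, had 5.35 and 6.81 against 3.72 and 4.07 FPKM. The salicylic acid marker PR1 stayed at 0.102 to 0.314 FPKM. JAZ8, among the 5 apart and higher, passed the filter on low values only through Another Col-0 (means of 0.723 against 1.39 FPKM).

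**Figure D4:**
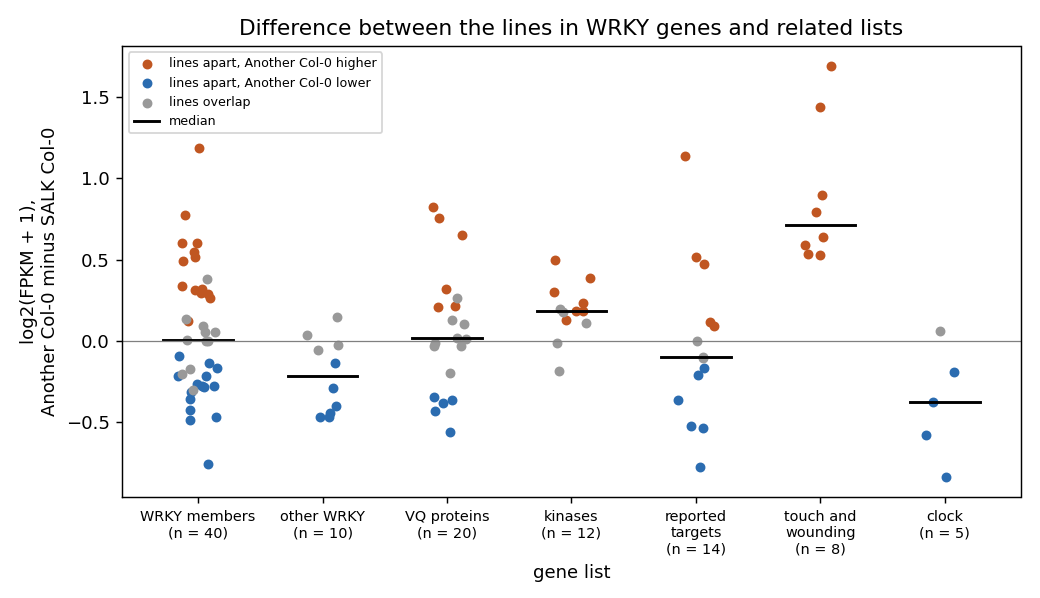
Difference between the lines on the log2(FPKM + 1) scale of each tested model in the WRKY list and 6 related lists (points), coloured by whether the libraries of the lines overlap, with the list median as a bar. WRKY genes and VQ partners spread to both sides of 0, while all 8 touch and wounding genes lie above it and 4 of 5 clock genes below.

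Touch-responsive and clock genes also had values that differed between the lines. All 8 tested genes of a short touch and wounding list (11 genes) were apart on the higher side, with a median of 0.71 and 0 past limma (6 higher at an unadjusted p under 0.05), beside 29.3% of annotated models apart and higher, and their summed FPKM was 1493 and 1314 in the SALK Col-0 libraries, against 2191 and 1994 for Another Col-0. Because this list was chosen with earlier results of these data known, its shared direction supports nothing. The deadenylase genes CAF1a and CAF1b and the zinc finger genes ZAT10 and ZAT12 had the largest differences, 1.69, 0.79, 1.44 and 0.90. Of 5 tested clock genes (6 listed), 4 were apart on the lower side, with a median of -0.38 and 0 past limma (4 lower at an unadjusted p under 0.05), beside 23.2% of annotated models apart and lower. CCA1 had 3.59 and 2.77 against 1.94 and 1.62 FPKM. LHY, also on the clock list, had 0.326 and 0.280 against 0.398 and 0.377 FPKM, apart and higher, under the level that was tested. The clock list was also chosen with earlier results known, so its direction supports nothing either. The labels say that material was frozen at once and give no hour of harvest. The part of touch and time of day in the WRKY18, WRKY40 and WRKY70 values was not tested.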

How the data were processed

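RNA of 2-week-old seedlings of 2 Col-0 lines was measured in 4 libraries. FPKM values of gene models, with limits and a status, are as the authors deposited them; per the submitters' processing notes TopHat, Cufflinks, Cuffdiff and TAIR10 were used, with no versions or roles stated. The kit named in the labels does not by its standard protocol mark strand. Models with a failed or too deep estimate in a library (19) were left out, and organelle rows with displaced fields were kept by their identifier. On log2(FPKM + 1), limma 3.58.1 (R 4.3.3) fitted the line as its term to the 20634 models whose mean reached 1 FPKM, with a mean-variance trend, two-sided, adjusted by Benjamini-Hochberg over all of them, with a threshold of 0.05 and 2 residual degrees of freedom. Tested on simulated data, the fit called the changed models where the spread was constant over models. It called none of them where the spread was drawn from these libraries without regard to level. The simulated libraries varied independently, while same-numbered libraries here deviated together, so the simulation does not give the power of this fit. With 2 libraries a line, an absence of calls carries little weight. Of 24407 single-gene models, all overlapped the gene of the same name on the same strand in TAIR10.1, from which sequences were read. Members and lists were chosen with earlier results of these data known. Every member may be named, with values in every library for those apart by at least 0.5, for subgroup IIa and for WRKY33, WRKY53, WRKY54, WRKY55 and WRKY70, and up to 4 genes per other list by size of difference; MKS1, MPK3, ICS1, PHT1;1, PHO1, PAD3, the CYP71A12 model, PR1 and further members were given values after these were seen. Alternatives covered the pseudocount, filters, scaling, trend, annotated or nuclear models, replicate block, threshold and each library left out.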

Additional observations from a re-analysis of the deposited data

How the results depend on the processing

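Under every alternative without the replicate number, limma called 0 WRKY members. With the replicate number as a block (1 residual degree of freedom), 12 members were called higher and 6 lower, and with annotated models only and the replicate block 14 and 14, where 26.6% and 18.1% of all models in that fit were called. Same-numbered libraries deviated together (r = 0.95 over 20634 models), but the labels do not say that a number marks a shared tray or day, so the number was not treated as a pairing. With the block, WRKY45 (limma, adjusted p = 0.0337) and WRKY15 (0.0394) were among the members called. The median difference was 0.092 at a mean of at least 5 FPKM, -0.017 after scaling to the same median and -0.037 to 0.047 with each library left out. Quantile normalization turned the sign of WRKY22 (-0.022), WRKY53 (0.0047) and WRKY57 (-0.00073), and scaling to the same median that of WRKY42 (-0.011) and WRKY57 (-0.024). With a library left out, 5 members turned sign: WRKY11 (-0.0059 to 0.19), WRKY22 (-0.11 to 0.21), WRKY42 (-0.036 to 0.042), WRKY53 (-0.19 to 0.18) and WRKY57 (-0.062 to 0.063). Of members with a difference over 0.1 in size, WRKY1, WRKY3, WRKY15, WRKY23, WRKY26, WRKY29, WRKY35, WRKY45, WRKY47, WRKY48, WRKY65 and WRKY69 moved by over 1.5 times without a library, and WRKY35, WRKY41, WRKY46 and WRKY61 with a pseudocount of 0.1. With 1 library left in a line, that library is assumed to vary like the other line. The cause of these shifts was not tested. Unknown depth limits low members most. A fit on nuclear models only was chosen after seeing the data.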
